A study of Homo sapiens with 8 samples.

Results

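The genes described here are 4 subunits of heterotrimeric kinesin-2 (KIF3A, KIF3B, KIF3C and KIFAP3) and 6 subunits of the BBSome (BBS1, BBS2, BBS4, BBS5, BBS7 and BBS9), 10 genes of the 86369 identifiers in the count table. The set was chosen by its siRNA fold changes: KIF3B was among the stronger decreases and BBS5 among the increases after NAT10 knockdown. The other 8 were added as their complex partners. The siRNA difference of KIF3B and BBS5 is therefore given as a description, with its error and without a p-value, and tests of that difference are given for the other members only. In the fit across all genes KIF3B ranked 14 of 202 called decreases by size and BBS5 17 of 113 called increases.

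HepG2, an established hepatocellular carcinoma line, received by lipofection either an siRNA that targets NAT10 (the siNAT10 group) or a negative control (the siCtrl group, from the label siControl), and RNA was taken after 2 days. Each group has 4 libraries, and the labels place replicates 1 and 2 of each group in batch 1 and replicates 3 and 4 in batch 2. No label says whether replicates were separate cultures, so p-values measure the spread between these libraries, which may be technical. The siRNA sequences are not given in the sources used here. The sample descriptions name the count table with the prefix SLAM, an abbreviation also used for metabolic RNA labelling, while the protocols describe no labelling step. Counts come from 3' end libraries, in which a count stands for a read at a transcript's 3' end and does not grow with transcript length. No molecular identifiers are named, so a count need not stand for a separate transcript. Levels are CPM, counts scaled to library size (TMM). In such bulk RNA, fewer cells of a kind and less RNA per cell cannot be told apart.

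Kinesin-2 is a plus-end-directed microtubule motor. KIF3A pairs with either KIF3B or KIF3C through their coiled coils, and KIFAP3 links the motor pair to cargo. In cilia this motor carries intraflagellar transport (IFT) trains from the base to the tip, while dynein-2 carries them back, and in the cytoplasm it also moves endosomes and adhesion proteins. The BBSome rides on IFT trains, is recruited to membranes by the small GTPase ARL6, and takes signalling receptors out of the cilium. Its loss causes Bardet-Biedl syndrome. Hepatocytes are epithelial cells that normally lack a primary cilium, whereas the bile duct cells beside them carry one.

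Total counts per library ran from 9731718 to 27977110. NAT10, the target, stood at 44.7, 39.2, 77.8 and 48.9 CPM in siCtrl replicates 1 to 4 and at 13.1, 12.2, 20.1 and 22.3 CPM in siNAT10. Its log2 fold change was -1.66 (SE 0.14, edgeR quasi-likelihood test, adjusted p 2.0e-05). Of 10 hepatocyte markers, 9 had a mean of at least 1 CPM, and the exception was APOB, which HepG2 cells are known to secrete. A level of 0 in this table may therefore be a loss in counting, which was not tested, and DYNC1I2, NDE1 and IFT27 were also at or near 0. Among the 9, SERPINA1 stood at only 1.70 to 13.2 CPM. Whether low levels above 0 were also affected by such a loss was not tested. The 10 hepatocyte markers summed to 17423 to 19737 CPM in siCtrl and 13013 to 15320 CPM in siNAT10, mostly AHSG, ALB and TF. The part of this difference in the results on the members was not tested. TF was called lower (log2 fold change -0.49, edgeR adjusted p 0.023), the 1 call among 9 tested hepatocyte markers. ALB (4266 to 4627 against 3232 to 3644 CPM), AHSG (7900 to 9918 against 5458 to 7680 CPM) and TTR (179 to 207 against 129 to 173 CPM) also lay lower without overlap. FGB (80.2 to 102 against 96.2 to 143 CPM) and HNF4A (242 to 476 against 298 to 463 CPM) overlapped between groups, as did AFP, APOA1 and SERPINA1. Of 10 multiciliated cell markers, 6 (MCIDAS, DNAI1, CCDC39, CCDC40, HYDIN and RSPH1) were at 0 counts in every library, and 1, FOXJ1, reached a mean of 1 CPM. Of 6 bile duct cell markers, 3 (KRT19, SOX9 and SPP1) were expressed, with summed levels of 1196 to 1439 CPM in siCtrl and 1169 to 1402 CPM in siNAT10. No fibroblast or endothelial marker reached a mean of 1 CPM. Of the leukocyte markers PTPRC, CD3E and MS4A1 were at 0, and LYZ made up most of a sum of 406 to 554 CPM in siCtrl and 331 to 386 CPM in siNAT10. LYZ was called lower (log2 fold change -0.42, edgeR adjusted p 0.043).

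The 3' UTRs of the members were searched on the transcript strand for the heptamer GTCTCTA, which occurs 1 time in the NAT10 coding sequence and which an earlier look at these data had tied to lower genes. KIF3B and KIF3C held it, and the other 8 members did not. The sites are printed here with the coding site of NAT10, 5' to 3', with the heptamer in capitals, because KIF3B is the member with the largest decrease and KIF3C is its closest relative among the members.

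KIF3B 3' UTR: taggttttcatGTCTCTAgtcatacctag

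KIF3C 3' UTR: tggcccaaaatGTCTCTAggtatctcaag

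NAT10 coding sequence: gagattatccaGTCTCTAaatcctgaatt

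These stretches lie, on GRCh38 in GENCODE 44 canonical transcripts, at chr20:32334026-32334054 (plus strand) for KIF3B, at chr2:25927807-25927835 (minus strand) for KIF3C and at chr11:34124317-34124345 (plus strand) for NAT10. The heptamer starts at base 2718 of the 3692-base KIF3B 3' UTR and at base 1154 of the 2380-base KIF3C 3' UTR. Of 10885 tested genes with a 3' UTR, 15.4% held it. Those 1678 genes had a median log2 fold change of -0.06, and 5.24% of them were called lower and 0.417% higher. The 9207 genes without it had a median of 0.0079, with 1.02% called lower and 1.04% higher. The heptamer was picked for its tie to lower genes in these same data, so these shares describe it and are no separate evidence. Carriers also had longer 3' UTRs, with a median of 3233 bases against 1083 bases, and neither the heptamer nor the length was tested as a cause. A match describes these letters only and is not shown to be a site of action.

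KIF3B (ENSG00000101350, chr20:32277651-32335011) was the member with the highest CPM and the one with the largest difference. It stood at 142, 136, 157 and 153 CPM in siCtrl replicates 1 to 4 and at 60.2, 51.0, 82.1 and 76.4 CPM in siNAT10 replicates 1 to 4. Every siNAT10 library lay below every siCtrl library, a separation that 5.4% of all tested genes showed in one direction or the other. The means were 147 ± 9.76 CPM and 67.4 ± 14.3 CPM (SD over the 4 libraries of a group, as for every ± that follows). The fitted log2 fold change was -1.14 (SE 0.11, 95% interval -1.37 to -0.92), which left 45.2% of the control level. It was -1.32 in batch 1 alone and -0.96 in batch 2 alone.

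KIF3A (ENSG00000131437, chr5:132692628-132737638), the motor partner that both other KIF3 chains need, moved the other way by value but did not pass the test. It stood at 5.23, 5.87, 4.78 and 10.6 CPM in siCtrl and at 8.87, 7.30, 12.9 and 15.4 CPM in siNAT10. Within each batch both siNAT10 libraries lay above both siCtrl libraries, as in 14.7% of all tested genes in either direction, while across batches siCtrl replicate 4 lay above siNAT10 replicates 1 and 2. The log2 fold change was 0.72 (SE 0.21, 95% interval 0.28 to 1.16, edgeR quasi-likelihood test, adjusted p 0.081). Blocking on replicate number in place of batch, a pairing that was not shown, gave 0.75 and an edgeR adjusted p of 0.025. The log2 fold change was 0.93 without siCtrl replicate 4 (edgeR adjusted p 0.041). The DESeq2 Wald test gave an adjusted p of 0.026. Without siCtrl replicate 3 the value was 0.49 (edgeR adjusted p 0.14).

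KIF3C (ENSG00000084731, chr2:25926598-25982749), the alternative partner of KIF3A, stood at 12.6, 11.9, 10.1 and 10.1 CPM in siCtrl and at 9.91, 11.9, 8.78 and 7.33 CPM in siNAT10. The groups overlapped, since siNAT10 replicate 2 lay at the level of siCtrl replicate 2. Its log2 fold change was -0.24 (SE 0.14, 95% interval -0.52 to 0.05, edgeR adjusted p 0.43).

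KIFAP3 (ENSG00000075945, chr1:169921326-170085208), the cargo-binding subunit, stood at 10.7, 8.63, 8.34 and 9.10 CPM in siCtrl and at 9.41, 8.69, 8.16 and 8.12 CPM in siNAT10. These ranges lay over each other. For KIFAP3 the fitted difference on the log2 scale was -0.10 (SE 0.14, 95% interval -0.39 to 0.20, edgeR adjusted p 0.79).

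**Figure D1:**
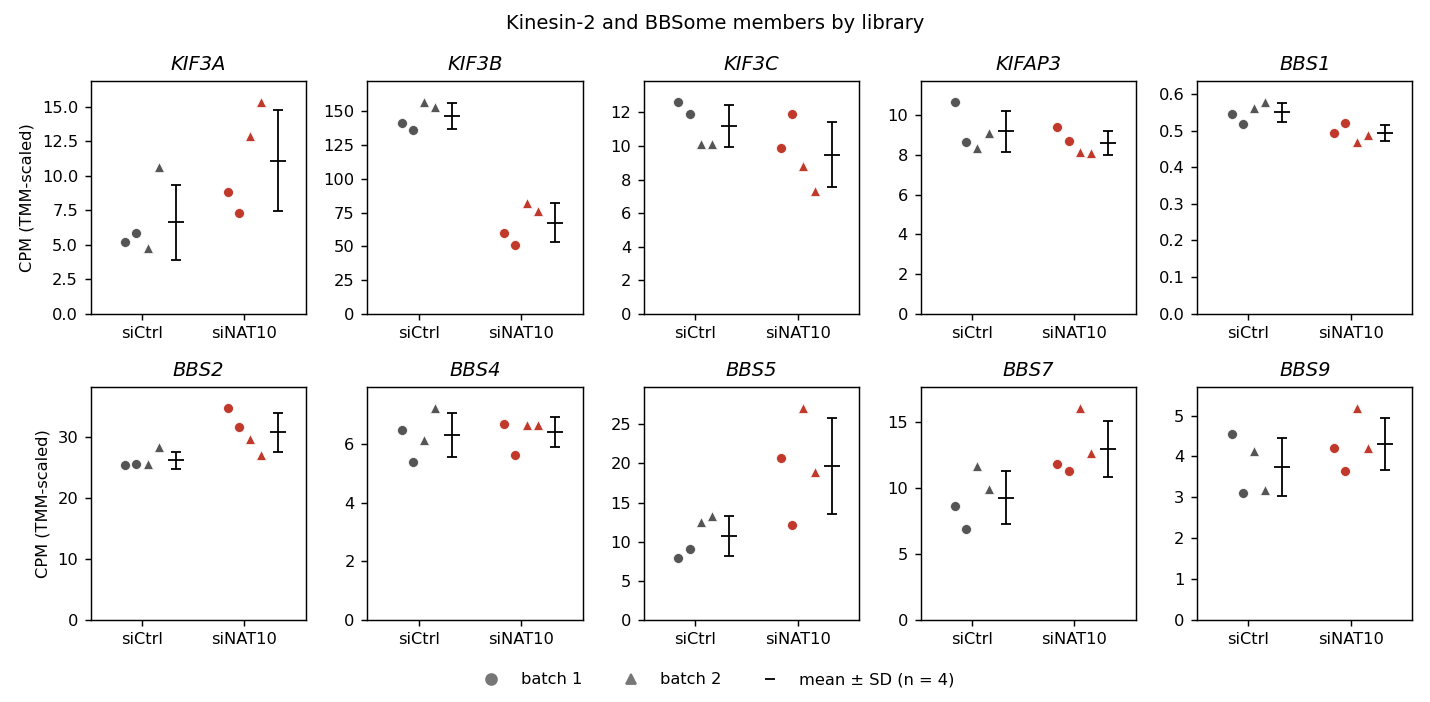
CPM of each member (y axis, TMM-scaled, from 0, a separate scale in each panel) in the siCtrl and siNAT10 libraries, with circles for batch 1, triangles for batch 2 and a bar for the mean ± SD of 4 libraries. KIF3B separates the groups completely (136 to 157 against 51.0 to 82.1 CPM), and BBS5 separates them within each batch.

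Because the motor is a complex, the chains were also set against each other within each library, which removes library scaling. KIF3B counts were 27.0, 23.2, 32.8 and 14.4 times those of KIF3A in siCtrl and 6.79, 6.99, 6.38 and 4.97 times in siNAT10. All siNAT10 libraries lay below all siCtrl libraries, and the spread was wider in siCtrl (24.4 ± 7.73) than in siNAT10 (6.28 ± 0.909). KIF3B counts were 11.2, 11.4, 15.5 and 15.1 times those of KIF3C in siCtrl and 6.08, 4.28, 9.35 and 10.4 times in siNAT10. That ratio was lower in siNAT10 in each batch, and KIF3B counts still exceeded those of KIF3C in every library. The summed level of KIF3A, KIF3C and KIFAP3 was 27.0 ± 2.88 CPM in siCtrl and 29.2 ± 1.37 CPM in siNAT10, and its groups overlapped. These values contain the KIF3B difference that chose the gene, so they describe it and are no separate evidence.

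**Figure D2:**
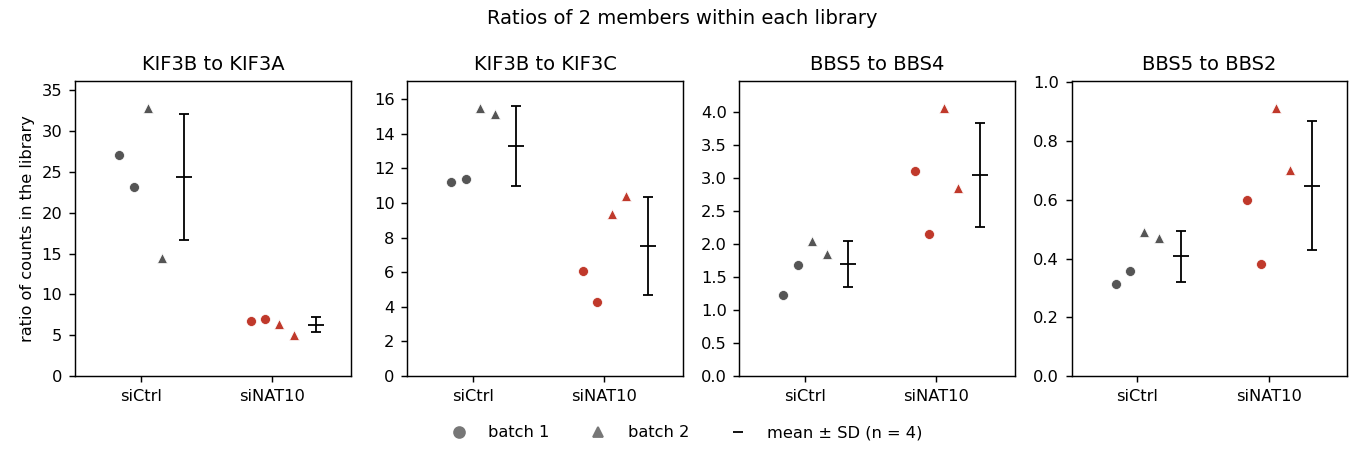
Ratio of the counts of 2 members in the same library (y axis, from 0, a separate scale in each panel), for siCtrl and siNAT10, with circles for batch 1, triangles for batch 2 and a bar for the mean ± SD of 4 libraries. KIF3B to KIF3A spans 14.4 to 32.8 in siCtrl and 4.97 to 6.99 in siNAT10, and BBS5 to BBS4 spans 1.22 to 2.05 and 2.15 to 4.06.

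BBS5 (ENSG00000163093, chr2:169479480-169506655), a subunit with pleckstrin-homology-like domains that bind phosphoinositides, was the BBSome member with the largest difference. It stood at 7.92, 9.09, 12.6 and 13.3 CPM in siCtrl replicates 1 to 4 and at 20.7, 12.1, 27.1 and 19.0 CPM in siNAT10. In each batch both siNAT10 libraries were above both siCtrl libraries, and across batches siNAT10 replicate 2 lay below siCtrl replicates 3 and 4. The fitted log2 fold change was 0.89 (SE 0.17, 95% interval 0.54 to 1.24), 185% of the control level, and it was 0.94 in batch 1 alone and 0.84 in batch 2 alone. With single libraries left out it ran from 0.71 to 1.03. The annotation also places ENSG00000251569 over its last exon in the same orientation. That locus had 0 counts in every library, and how shared reads were assigned is not stated.

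BBS7 (ENSG00000138686, chr4:121824329-121870487), which with BBS2 and BBS9 forms the core that other subunits build on, had the next largest difference. It stood at 8.58, 6.90, 11.6 and 9.90 CPM in siCtrl and at 11.8, 11.2, 16.0 and 12.6 CPM in siNAT10. Each batch was separated, and across batches only siCtrl replicate 3 reached above siNAT10 replicate 2. The log2 fold change was 0.49 (SE 0.14, 95% interval 0.19 to 0.78) and did not pass (edgeR adjusted p 0.082). The DESeq2 Wald test gave an adjusted p of 0.038, and without siNAT10 replicate 4 the edgeR adjusted p was 0.048.

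BBS2 (ENSG00000125124, chr16:56465640-56582667), the BBSome member with the highest CPM, stood at 25.3, 25.5, 25.6 and 28.3 CPM in siCtrl and at 34.7, 31.7, 29.6 and 27.1 CPM in siNAT10. The siNAT10 libraries of batch 1 were the highest, and siNAT10 replicate 4 lay below siCtrl replicate 4. Its log2 fold change was 0.24 (SE 0.11, edgeR adjusted p 0.31), with 0.39 in batch 1 alone and 0.08 in batch 2 alone. The locus ENSG00000288725, which overlaps its 3' end on the same strand, had 0 counts in every library.

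BBS9 and BBS4 did not differ beyond the spread of their libraries. BBS9 (ENSG00000122507, chr7:33109557-33877180) stood at 4.54, 3.11, 4.12 and 3.18 CPM in siCtrl and at 4.21, 3.65, 5.18 and 4.20 CPM in siNAT10. For BBS9 the log2 fold change was 0.18 (95% interval -0.26 to 0.61, edgeR adjusted p 0.74). BBS4 (ENSG00000140463, chr15:72686179-72738475), a subunit made of tetratricopeptide repeats, stood at 6.47, 5.41, 6.14 and 7.23 CPM in siCtrl and at 6.68, 5.63, 6.67 and 6.65 CPM in siNAT10. Its log2 fold change was 0.02 (95% interval -0.32 to 0.36, edgeR adjusted p 0.97).

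BBS1 (ENSG00000174483, chr11:66510606-66533613), the subunit that contacts ARL6, was too low to be tested, with 5 to 15 counts per library. It stood at 0.545, 0.518, 0.562 and 0.578 CPM in siCtrl and at 0.493, 0.521, 0.471 and 0.489 CPM in siNAT10, and a difference of this size was not detectable at this depth. The gene ZDHHC24 lies on the other strand over its 3' end and had 298 to 1053 counts per library. On the same strand ENSG00000256349 also covers that end and had 0 counts in every library. Neither the strand setting nor the handling of shared reads is stated, so reads of BBS1 could have been lost or given to a neighbour.

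Of the 8 members other than KIF3B and BBS5, 7 were tested and 0 were called (edgeR quasi-likelihood test, adjusted p under 0.05), where 2.28% of 13840 genes were called. At an unadjusted p under 0.05 there were 3 (KIF3A, BBS7 and BBS2), where 15.7% of all genes were, and DESeq2 called 2. Their median log2 fold change was 0.18, with 5 higher and 2 lower by value, against a median of -0.0024 over all genes tested. With BBS5, chosen for its rise, all 5 tested BBSome members had a positive value, where 6872 of 13840 genes had. The value of BBS4 was 0.02 and changed sign with some libraries left out. Together with BBS1 the BBSome members summed to 53.4, 50.5, 60.6 and 62.5 CPM in siCtrl and 78.6, 64.9, 85.0 and 70.0 CPM in siNAT10. Without BBS5 the sums were 45.5, 41.4, 48.0 and 49.2 CPM and 57.9, 52.7, 58.0 and 51.0 CPM, and the groups did not overlap, a description over members chosen with results known. BBS2 makes up more of that sum than any other member. Counts of BBS5 were 1.22, 1.68, 2.05 and 1.84 times those of BBS4 in siCtrl and 3.11, 2.15, 4.06 and 2.85 times in siNAT10, while BBS5 to BBS2 overlapped between groups (0.313 to 0.491 against 0.383 to 0.913).

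**Figure D3:**
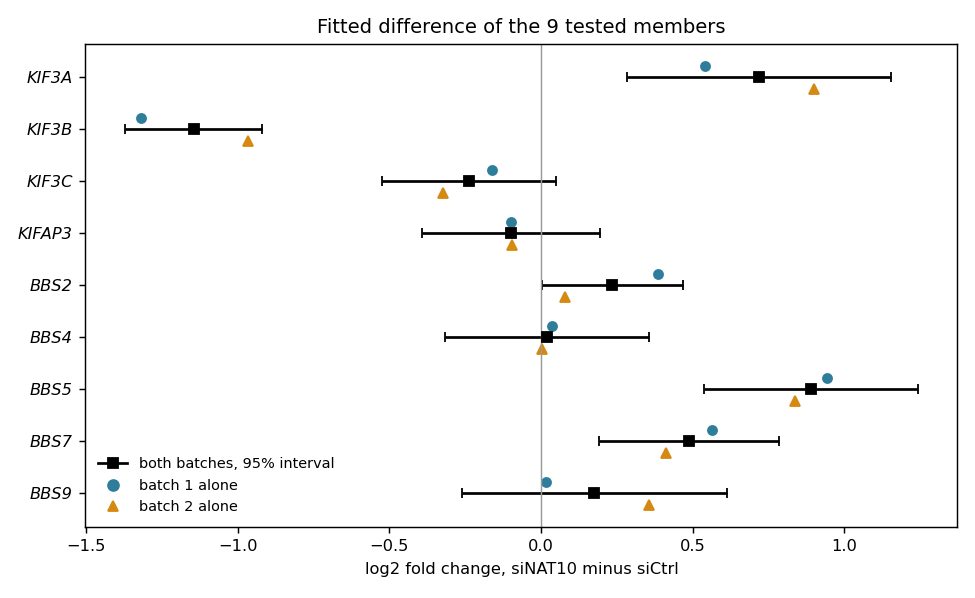
Fitted log2 fold change, siNAT10 minus siCtrl (x axis), for the 9 tested members, with squares and 95% intervals for both batches together, circles for batch 1 alone and triangles for batch 2 alone. KIF3B lies at -1.14, BBS5 at 0.89 and KIF3A at 0.72, and the interval of BBS4 spans 0.

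In siCtrl the order of the members by mean CPM was KIF3B at 147 ± 9.76, BBS2 at 26.2 ± 1.43, KIF3C at 11.2 ± 1.27, BBS5 at 10.7 ± 2.61, BBS7 at 9.25 ± 2.00 and KIFAP3 at 9.18 ± 1.03. KIF3A at 6.63 (range 4.78 to 10.6), BBS4 at 6.31 ± 0.755, BBS9 at 3.74 ± 0.709 and BBS1 at 0.551 ± 0.026 followed. The levels of KIF3C, BBS5, BBS7 and KIFAP3 lay within 1 SD of the next in order, as did KIF3A and BBS4, although KIF3C was above KIFAP3 in all 4 siCtrl libraries. In siNAT10 KIF3B was still the highest at 67.4 ± 14.3 CPM, and BBS5 at 19.7 ± 6.14 CPM stood above KIF3C at 9.49 ± 1.94 CPM. KIF3A stood above KIF3C by rank, at 11.1 ± 3.68 CPM, within the spread of both.

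The batches gave a contrast that the choice of members had not used. Of the 9 tested members, 4 were called higher in batch 2 (edgeR quasi-likelihood test), where 25.3% of all genes were called in either direction and 13% were higher in batch 2. They were KIF3A (log2 difference 0.63, SE 0.21, adjusted p 0.033), BBS5 (0.55, SE 0.17, adjusted p 0.022), BBS7 (0.39, SE 0.14, adjusted p 0.049) and KIF3B (0.33, SE 0.11, adjusted p 0.030). KIF3C lay lower in batch 2 by value (-0.35, SE 0.14, adjusted p 0.066). These calls rested on few libraries: 0 members were called without siNAT10 replicate 2 or without siNAT10 replicate 3, 1 was called when siNAT10 replicate 1 or either of siCtrl replicates 1 and 4 was left out, and the fit with no filter called 2. KIF3A, BBS5 and BBS7 thus had positive values in both contrasts, whereas KIF3B was higher in batch 2 and lower in siNAT10. BBS4 and BBS9 also had positive values in both contrasts, smaller ones that were called in neither. The labels do not say what distinguishes the batches.

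The siRNA difference of the members was not shown to depend on batch. An interaction term of siRNA with batch was called in 0 members and 0 genes overall (edgeR quasi-likelihood test), with 3.04% of all genes and 0 members at an unadjusted p under 0.05, and DESeq2 called 1 gene. The interaction of KIF3B was 0.35 (SE 0.20), that of BBS5 -0.11 (SE 0.34), that of KIF3A 0.36 (SE 0.42) and that of BBS2 -0.31 (SE 0.22).

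**Figure D4:**
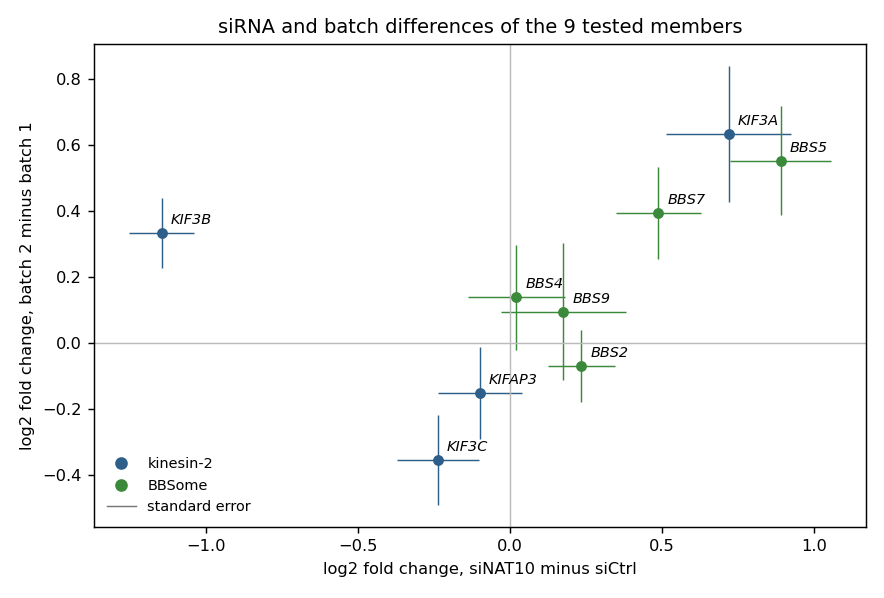
log2 difference between batches (y axis, batch 2 minus batch 1) against the log2 fold change of the siRNA contrast (x axis, siNAT10 minus siCtrl) for the 9 tested members, with standard errors, kinesin-2 in blue and BBSome in green. KIF3A, BBS5 and BBS7 sit at the upper right, with BBS4 and BBS9 in the same quadrant nearer the origin, and KIF3B stands alone at the upper left (-1.14, 0.33).

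The genes around these complexes were then read from lists ordered by role, 152 genes in 14 lists, of which 135 were tested. In all, 3 were called lower (DCTN3, DYNC1LI2 and DYNLT1) and 0 higher, where 1.46% and 0.816% of all genes were. At an unadjusted p under 0.05 there were 27 of the 135, where 15.7% of all genes were. That share over all genes also applies to the counts at an unadjusted p given for each list below. The 135 tested list genes had a median log2 fold change of 0.04, with 74 positive and 61 negative. The 3 called genes encode subunits of dynein or dynactin, and DESeq2 called 5 list genes, the same 3 with ARL6 and IFT80.

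**Figure D5:**
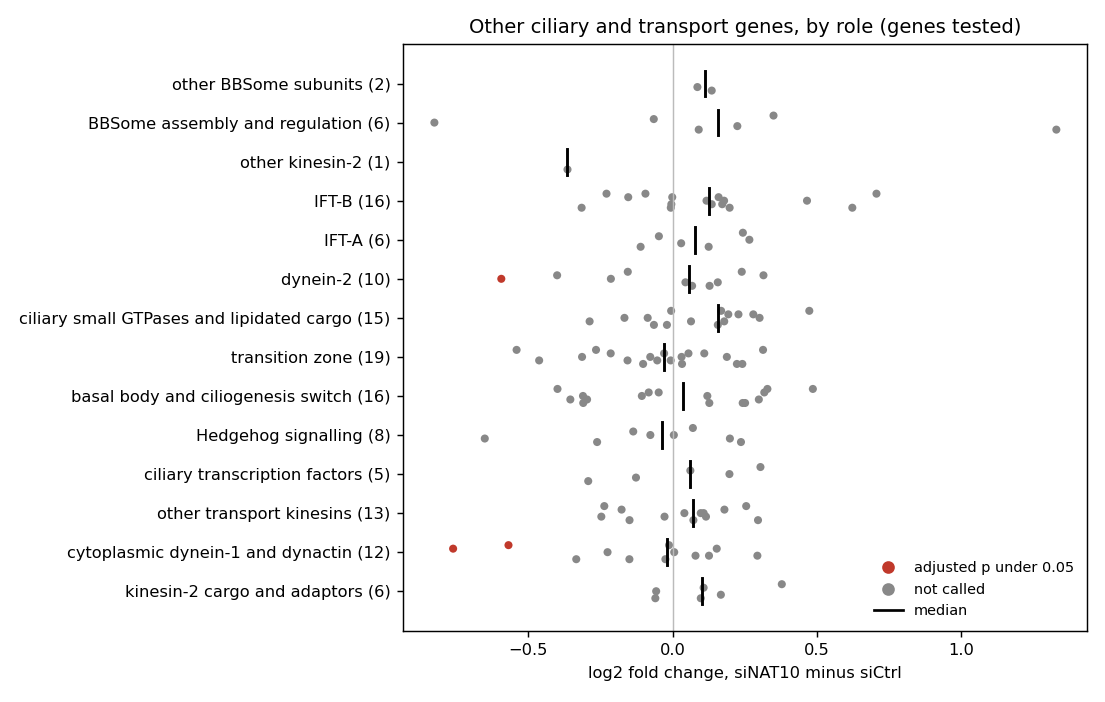
log2 fold change, siNAT10 minus siCtrl (x axis), of the tested genes of each list (rows, with the number tested), with called genes in red, other genes in grey and a black bar for the list median. The list medians lie between -0.37 and 0.16, and the red points are DYNLT1 (-0.59), DCTN3 (-0.76) and DYNC1LI2 (-0.57).

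Dynein-1 and dynactin, the cytoplasmic minus-end motor and its activator, held 2 called genes of 12 tested, both lower, where 1.46% of all genes were called lower, with a list median of -0.02. DCTN3, the small p24 subunit of dynactin, stood at 22.6, 20.8, 27.2 and 27.2 CPM in siCtrl and at 12.4, 12.9, 18.4 and 14.1 CPM in siNAT10. The groups did not overlap, and the log2 fold change was -0.76 (SE 0.12, edgeR adjusted p 0.0032). DYNC1LI2, a light intermediate chain that links dynein-1 to cargo adaptors, stood at 143, 158, 145 and 169 CPM in siCtrl and at 94.4, 86.5, 116 and 122 CPM in siNAT10. Again no library overlapped, and the log2 fold change was -0.57 (SE 0.11, edgeR adjusted p 0.011). Its call was lost without siNAT10 replicate 2 (edgeR adjusted p 0.069).

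Among 10 tested subunits of dynein-2, the retrograde motor of the cilium, DYNLT1 was the called gene. It encodes a light chain that dynein-1 shares. DYNLT1 stood at 32.9, 34.6, 43.4 and 52.7 CPM in siCtrl and at 20.9, 20.5, 32.6 and 36.2 CPM in siNAT10, with separation in each batch and overlap across them. The log2 fold change was -0.59 (SE 0.11, edgeR adjusted p 0.010), and the call was lost without siNAT10 replicate 2 (edgeR adjusted p 0.061). The log2 fold changes in batch 1 and batch 2 alone were -0.78 and -0.74 for DCTN3, -0.74 and -0.40 for DYNC1LI2 and -0.70 and -0.48 for DYNLT1. None of the 3 passed without the batch term, and batch 2 alone, with 2 libraries a group, called 0 genes of any kind. DYNLT1 and DYNC1LI2 hold GTCTCTA in the 3' UTR, as did 18 of the 135 tested list genes, and DCTN3 does not. The heptamer was picked for its tie to lower genes in these same data, so these matches are no separate evidence.

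ARL6, the GTPase that brings the BBSome to membranes, had the largest positive value of the lists but stayed outside the call. It stood at 1.56, 1.61, 0.750 and 0.506 CPM in siCtrl and at 2.46, 2.33, 3.92 and 2.54 CPM in siNAT10, on 7 to 67 counts per library. Every siNAT10 library was above every siCtrl library. The log2 fold change was 1.33 (SE 0.35, edgeR adjusted p 0.055), with 0.59 in batch 1 alone and 2.33 in batch 2 alone. The interaction of siRNA with batch was 1.73 for ARL6 (SE 0.58, edgeR unadjusted p 0.0087) and was not called after adjustment. Blocked on replicate number, a pairing that was not shown, the edgeR adjusted p of the siRNA difference was 0.046. Its list of BBSome assembly and regulation genes had 0 of 6 called, with 3 at an unadjusted p under 0.05, and a median of 0.16. BBS12, a chaperonin-like protein that helps BBSome assembly, had the lowest value of that list and is named after its value was seen (-0.83, SE 0.34, edgeR adjusted p 0.25). The BBSome subunits outside the 10 members, BBIP1 (0.14, SE 0.15, edgeR adjusted p 0.73) and TTC8 (0.09, SE 0.13, edgeR adjusted p 0.81), did not pass.

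The trains that kinesin-2 pulls showed no called gene. Of 16 tested IFT-B genes, the anterograde complex, 0 were called and 2 had an unadjusted p under 0.05, and the median was 0.13. IFT80 had the largest value, with 5.13, 5.35, 3.89 and 4.91 CPM in siCtrl and 11.5, 10.3, 6.35 and 4.01 CPM in siNAT10. The high libraries were those of batch 1, and siNAT10 replicate 4 lay within the siCtrl range. Its log2 fold change was 0.71 (SE 0.20, edgeR adjusted p 0.080), with an edgeR adjusted p of 0.017 without siNAT10 replicate 4 and 0.049 without siCtrl replicate 4. Of 6 tested IFT-A genes, the complex for the return path, 0 were called and 0 had an unadjusted p under 0.05. The largest value was that of TTC21B (0.27, SE 0.13). KIF17, the homodimeric kinesin-2 that accompanies KIF3 in some cilia, had a log2 fold change of -0.37 (SE 0.16, edgeR adjusted p 0.27).

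Of 16 tested basal body and ciliogenesis genes, 7 had an unadjusted p under 0.05, where 15.7% of all genes had, and 0 were called, with a median of 0.04. The 7 went both ways, with CCP110, CEP164 and KIF2A higher by value and FBF1, AURKA, HDAC6 and ODF2 lower. SCLT1 was not among them. Of 19 tested transition zone genes 0 were called (2 at an unadjusted p under 0.05, median -0.03). RPGR (-0.54, SE 0.25, edgeR adjusted p 0.31) and SCLT1 (0.49, SE 0.28, edgeR adjusted p 0.44) had the largest values in these lists. Of 15 ciliary GTPases and lipidated-cargo genes 0 were called (2 at an unadjusted p under 0.05), and the largest value was that of RAB28 (0.47, SE 0.15, edgeR adjusted p 0.11), a GTPase that is itself a BBSome cargo. RAB28 stood at 7.23 to 8.85 CPM in siCtrl and 9.97 to 13.7 CPM in siNAT10, without overlap.

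Hedgehog signalling, the best known pathway that needs a cilium, could be read only in part. Of 14 genes 8 were tested, and its response genes GLI1 and HHIP were not among them. Of the 8, 0 were called and 0 had an unadjusted p under 0.05, with IHH at -0.65 (SE 0.34, edgeR adjusted p 0.37). Among 5 tested ciliary transcription factors 0 were called and 1, RFX7, had an unadjusted p under 0.05 (0.30, SE 0.14, edgeR adjusted p 0.29). The 13 tested transport kinesins of other families had 0 called and 2 at an unadjusted p under 0.05, a median of 0.07 and values from -0.25 to 0.30. KLC2, a kinesin-1 light chain, had the largest (0.30, SE 0.17). Kinesin-2 cargo and adaptor genes had 0 of 6 called and 1 at an unadjusted p under 0.05, with SMC3 at 0.38 (SE 0.17, edgeR adjusted p 0.29). Several of these values moved with single libraries left out: IHH from -1.16 (without siNAT10 replicate 2) to -0.41 (without siNAT10 replicate 4), SMC3 from 0.18 to 0.56, TTC21B from 0.14 to 0.37, SCLT1 from 0.32 to 0.79, RFX7 from 0.17 to 0.38 and BBIP1 from 0.013 to 0.23.

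Genes with the most similar pattern to KIF3B and BBS5 were sought over the 8 libraries by Pearson r of log2 CPM after the mean of each batch was removed, among genes with a mean of at least 8 CPM. The values include the siRNA difference and are a description. Nearest to KIF3B were SCRN1 (r 0.99), OIP5-AS1 (r 0.99) and AVL9 (r 0.98), all lower in siNAT10, with log2 fold changes of -0.95, -0.37 and -0.47. SCRN1 stood at 54.2 to 61.4 CPM in siCtrl and 25.0 to 32.0 CPM in siNAT10. SCRN1 and AVL9 hold GTCTCTA in 3' UTRs of 3848 and 4819 bases. Of tested genes with a 3' UTR 15.4% held it, and of the 182 such genes called lower 88 did. The heptamer was picked for its tie to lower genes and these genes for following the decrease of KIF3B, so the matches are no separate evidence. OIP5-AS1, a non-coding RNA, was not searched. Nearest to BBS5 were ABLIM1 (r 0.99), FYTTD1 (r 0.98) and GCA (r 0.98), with smaller log2 fold changes of 0.29, 0.14 and 0.35.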

How the data were processed

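Per the labels, the authors made the deposited whole-number counts per gene by STAR 2.7.9a alignment to GRCh38 and featureCounts, and the submitters' processing notes also name Trim Galore 0.6.10 and cutadapt 3.5. The annotation release, strand setting and treatment of multi-gene reads are not given in the sources used here, and the library kit is named as forward in the series text and reverse in the sample protocols. Of 86369 identifiers 61458 matched GENCODE 44, which gave symbols, positions and 3' UTRs (canonical transcripts). All 8 libraries were fitted in R 4.3.3 with edgeR 4.0.16: filterByExpr (minimum count 10, leaving 13840 genes), TMM, quasi-likelihood F test with batch and siRNA as additive terms, Benjamini-Hochberg adjustment over all genes tested, and calls at an adjusted p under 0.05. Standard errors come from the F statistic and 95% intervals from its degrees of freedom. The script was tested on simulated counts.

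Same-numbered libraries deviated together from their group means (correlations across genes of 0.39, 0.38, 0.45 and 0.36 for replicates 1 to 4). They also share a batch and batch means were not removed, so these correlations cannot tell pairing from batch. A replicate block was fitted as an alternative, beside DESeq2 1.42.0, other scalings and filters, single batches, libraries left out and thinning. Each list's called genes, or otherwise its largest value, and the 3 genes most like KIF3B and BBS5 were named. Members and lists were chosen with earlier results of these data known. No molecular identifiers are named, so depth statements cover counting error only.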

Additional observations from a re-analysis of the deposited data

Results flagged for a closer look

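In each group of 4 libraries the highest and lowest CPM of the 10 members and NAT10 were compared with the rest, 22 groups in all, of which chance flags about 1 in 20 (1.1 here), and 2 stood apart. BBS2 in siCtrl replicate 4 stood at 28.3 CPM, where the other siCtrl libraries lay between 25.3 and 25.6 CPM. BBS4 in siNAT10 replicate 2 stood at 5.63 CPM, where the other siNAT10 libraries lay between 6.65 and 6.68 CPM.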

How the results depend on the processing

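The count of called genes between siNAT10 and siCtrl was 315, and it was 15 without the batch term, 601 with DESeq2, 595 with no filter on low counts, 173 in batch 1 alone, 0 in batch 2 alone (946 genes at an unadjusted p under 0.05 in edgeR) and 75 to 286 with a library left out. Among the 8 members other than KIF3B and BBS5 the count of 0 became 1 with the replicate block (454 genes in all), 2 with DESeq2, 1 with no filter, 1 after thinning to the smallest library and 0 to 1 with a library left out. The 3 called list genes became 0 without the batch term, 5 with DESeq2, 5 with no filter, 0 in batch 2 alone and 1 to 4 with a library left out. The block changed no other call named here than those of KIF3A and ARL6. Between batches, the 4 called members became 2 with no filter and 0 to 3 with a library left out. The interaction count of 0 became 1 with DESeq2, 15 with no filter and 0 to 2 with a library left out. KIFAP3 and BBS4 changed sign after thinning (0.13 and -0.073), and BBS4 ran from -0.035 to 0.076 with a library left out. KIF3B ran from -1.19 to -1.06 with a library left out. Counts of 5 to 15 per library for BBS1 and 7 to 67 for ARL6 limit the precision of their values.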
